A study of Caenorhabditis elegans with 12 samples.

Results

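The outer parts, or arms, of the 5 autosomes of *Caenorhabditis elegans* were compared by whether they carry the meiotic pairing centre of their chromosome, in a chromatin immunoprecipitation and sequencing study of LEM-2. Counts had been made in 504 windows of 200 kb tiled along the chromosomes. An arm window was one whose midpoint lay below 4 or above 11 Mb on I, below 5 or above 12 Mb on II, below 4 or above 10 Mb on III, below 4 or above 13 Mb on IV, and below 6 or above 17 Mb on V. This rule uses position alone and chose 215 of the 504 windows. The right arms of I and V and the left arms of II, III and IV formed the pairing-centre arms (106 windows), and the other arm of each chromosome formed the opposite arms (109 windows). The sides of the pairing centres are background knowledge and were not read from the files used here. The other windows of the table, 200 in autosomal centres and 89 on X, were used only to fit the tests and to give the background.

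LEM-2 is a protein of the inner nuclear membrane, so DNA recovered with it lies near the nuclear periphery, and autosomal arms are its best known territory in worm embryos. MET-2 and SET-25 methylate lysine 9 of histone H3, a mark of silent chromatin, and CEC-4, a chromodomain protein, recognises this mark at the nuclear envelope. A pairing centre is a region near one end of a worm chromosome that zinc finger proteins bind in meiotic germ cells, where it brings homologous chromosomes together and starts their synapsis. Pairing centres act in the germ line, whereas the chromatin studied here came from embryos.

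Early embryos of 3 genotypes were used, namely the mutant labelled met-2 set-25_delta_delta (strain GW638), with deletions in the genes of both methyltransferases, the mutant labelled cec-4_delta (strain GW828), and wild-type (strain GW1). All strains were grown side by side in liquid culture at 20 °C in independent biological replicates, each genotype giving 2 LEM-2 and 2 input libraries, 12 in all. Whole embryos were extracted, so cell types were pooled. The deposited counts came to between 10750212 and 12340446 per library, and the median window held between 19480 and 24830 counts. Replicates differed by more than counting error if each count was an independent fragment (chi-square per degree of freedom of 2.54 to 73.9, the highest being LEM-2 in cec-4). LEM-2 enrichment is given below as log2 of LEM-2 over input, paired by genotype and replicate number, each as CPM (counts scaled to the library total) plus 1, averaged over the windows of an arm and then over the 5 arms of a class. A value of 0 means an equal share of counts in LEM-2 and input.

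Wild-type embryos had the same mean LEM-2 enrichment on the arm classes to within 0.01, whereas in both mutants the pairing-centre arms had less than the opposite arms. The gap was larger in cec-4 than in met-2 set-25 embryos, and in cec-4 the pairing-centre arms had, as a class, about as much signal as input. On the pairing-centre arms the log2 ratio was 0.10 and 0.13 in the met-2 set-25 library pairs, 0.02 and -0.04 in the cec-4 pairs, and 0.44 and 0.39 in the wild-type pairs. As linear ratios of the means, LEM-2 was 1.08 times input in met-2 set-25, 0.991 times input in cec-4 and 1.33 times input in wild-type. The pairs of the 3 genotypes did not overlap. On the opposite arms the log2 ratio was 0.22 and 0.26 in met-2 set-25 embryos, 0.27 and 0.35 in cec-4, and 0.44 and 0.38 in wild-type, or 1.18 times input in met-2 set-25, 1.24 in cec-4 and 1.33 in wild-type. Here too both mutants lay below wild-type in every pair, and met-2 set-25 lay below cec-4.

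The difference between the classes was taken within each library pair, which needs no scaling between libraries. Pairing-centre minus opposite arms was -0.12 and -0.13 in met-2 set-25 (mean -0.13 ± 0.01), -0.25 and -0.39 in cec-4 (mean -0.32 ± 0.10), and 0.0076 and 0.0082 in wild-type (mean 0.0079 ± 0.0004; SD, n = 2 each). Relative to wild-type the class difference was thus lower by 0.14 in met-2 set-25 embryos and by 0.33 in cec-4, with no overlap between any of the genotypes. An exact two-sided permutation test of 2 pairs against 2 gave p = 0.333 for each of these contrasts, which is the smallest value this design allows. Computed from the LEM-2 libraries alone, in log2 CPM per 200 kb, the class difference was -0.06 and -0.06 in met-2 set-25 embryos, -0.20 and -0.35 in cec-4, and 0.07 and 0.08 in wild-type. In the input libraries alone it was 0.067 and 0.070 in met-2 set-25 embryos, 0.051 and 0.041 in cec-4, and 0.061 and 0.075 in wild-type. The input differences of cec-4 were both below those of wild-type, by 0.021 on average, against 0.35 for LEM-2 alone.

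**Figure D1:**
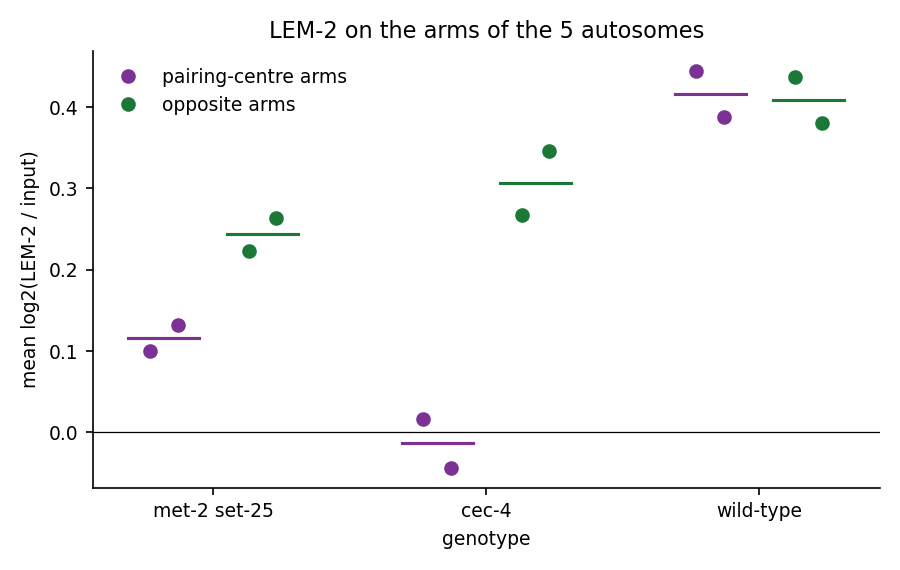
Mean log2 ratio of LEM-2 to input on the 5 pairing-centre arms and the 5 opposite arms, by genotype. Each point is a library pair and each bar the mean of 2 pairs; in cec-4 the pairing-centre arms lie near 0 (0.02 and -0.04) while the opposite arms lie at 0.27 and 0.35, and in wild-type the classes lie together.

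The equality of the classes in wild-type was a mean over chromosomes that differed. In wild-type the pairing-centre arm was the higher one on III (0.10 and 0.16 in the library pairs) and on V (0.38 and 0.37). It was the lower one on I (-0.10 and -0.07), on II (-0.19 and -0.15) and on IV (-0.16 and -0.28). Without V the wild-type class difference was -0.08, and without III it was -0.02. In cec-4, by contrast, the pairing-centre arm was the lower one on all 5 autosomes in both library pairs, with values from -0.15 to -0.50. In met-2 set-25 it was lower on I (-0.12 and -0.13), II (-0.18 and -0.19) and IV (-0.37 and -0.37), and close to the opposite arm on III (0.03 and 0.02) and V (0.03 and 0.01).

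The change of the arm difference relative to wild-type was tested for each chromosome with limma over 6 chromosomes, X included in the fit. In cec-4 it fell on 5 of 5 autosomes. The fall was largest on V, at 0.65 (SE 0.06, adjusted p = 2.1e-06), followed by III at 0.36 (SE 0.06, adjusted p = 2.2e-04). It was 0.24 on IV and 0.21 on I (adjusted p = 0.0031 each) and 0.18 on II (adjusted p = 0.011). In met-2 set-25 it fell on 1 of 5 autosomes, V, by 0.36 (SE 0.06, adjusted p = 8.2e-04). The others changed by -0.15 on IV (adjusted p = 0.065), -0.11 on III (adjusted p = 0.16), -0.05 on I (adjusted p = 0.51) and -0.02 on II (adjusted p = 0.80), all without passing the test. The direct comparison of the mutants, met-2 set-25 minus cec-4, was positive and passed on 4 of 5 autosomes: 0.29 on V and 0.25 on III (limma adjusted p = 0.0040 each), 0.17 on I (adjusted p = 0.019) and 0.17 on II (adjusted p = 0.026), but not on IV (0.08, adjusted p = 0.22).

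Limma shares the spread among chromosomes. The cec-4 pairs differed from each other by the same sign on every autosome (SD of 0.06 to 0.14), while the met-2 set-25 pairs were close (SD of 0.0035 to 0.012). With each chromosome's own variance the cec-4 calls on I, III, IV and V remained, that on II was lost (adjusted p = 0.077), the met-2 set-25 call on V was lost (adjusted p = 0.068), and none of the 4 calls between the mutants remained. The cec-4 call on IV was lost without wild-type replicate 1 (adjusted p = 0.052) and that on II without wild-type replicate 2 (adjusted p = 0.079). Between the mutants, calls on 1 autosome were left without met-2 set-25 replicate 1 and on 2 without replicate 2. Without either cec-4 replicate, met-2 set-25 was called against wild-type on 3 autosomes in place of 1.

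**Figure D2:**
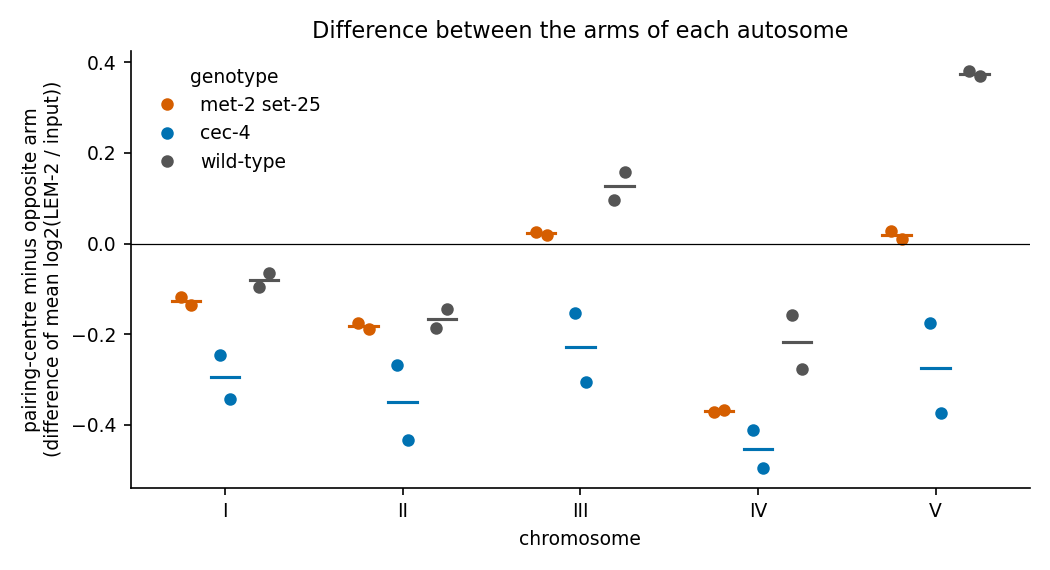
Pairing-centre arm minus opposite arm in mean log2 ratio of LEM-2 to input, for each autosome and genotype, with a point per library pair and a bar at the mean of 2. All 10 cec-4 points lie below 0, whereas the wild-type points lie above 0 on III and V and below 0 on I, II and IV.

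Arm by arm, each of the 5 pairing-centre arms fell in both mutants, and of the opposite arms I left fell in both (limma over 18 chromosome regions, SE 0.04 for every region). The equal SE shows that the fit gave all regions a common variance. The very small p-values below thus rest on pooling 18 regions of the same 6 library pairs, which are not independent replicates. On V right the cec-4 pairs had an SD of 0.10. The calls on the other opposite arms depended on the setting, as given with each. V right, the pairing-centre arm with the most LEM-2 in wild-type, had 0.22 and 0.26 in met-2 set-25 embryos, 0.04 and -0.10 in cec-4, and 0.63 and 0.59 in wild-type. Its fall of 0.64 in cec-4 (adjusted p = 3.6e-19) was the largest of the 10 arms, and that in met-2 set-25 was 0.37 (adjusted p = 2.2e-10). I right was the arm with the lowest values in the mutants, at -0.07 and -0.05 in met-2 set-25 embryos and -0.16 and -0.23 in cec-4, against 0.36 and 0.29 in wild-type. It fell by 0.38 in met-2 set-25 (limma adjusted p = 1.4e-10) and by 0.52 in cec-4 (adjusted p = 1.3e-15), so that both mutants had less LEM-2 than input there.

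III left had 0.18 and 0.22 in met-2 set-25 embryos, 0.08 and 0.04 in cec-4, and 0.53 and 0.49 in wild-type, and fell by 0.31 in met-2 set-25 embryos and by 0.45 in cec-4. IV left had nearly equal values in the mutants, 0.08 and 0.12 in met-2 set-25 embryos and 0.10 and 0.09 in cec-4, against 0.42 and 0.35 in wild-type. It fell by 0.28 in met-2 set-25 embryos and by 0.29 in cec-4. II left, the longest pairing-centre arm with 25 windows, had 0.08 and 0.11 in met-2 set-25 embryos, 0.03 and -0.02 in cec-4, and 0.28 and 0.22 in wild-type, and fell by 0.16 in met-2 set-25 embryos and by 0.25 in cec-4. Between the mutants, met-2 set-25 had more LEM-2 than cec-4 on V right (difference 0.28, limma adjusted p = 1.2e-06), I right (0.14, adjusted p = 0.018) and III left (0.14, adjusted p = 0.018), but not past the test on II left (0.09, adjusted p = 0.17) or IV left (0.01, adjusted p = 0.95). None of these 3 differences passed when every region kept its own variance (limma adjusted p = 0.19 on V right, 0.27 on I right and 0.19 on III left). Those on I right and III left also failed with the replicate number as a block (adjusted p = 0.051 each), when centred on the median autosomal window (0.072 each), and without met-2 set-25 replicate 1 (0.13 and 0.11), met-2 set-25 replicate 2 (0.25 each) or cec-4 replicate 2 (0.30 and 0.24).

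Among the opposite arms, I left stood apart. It had 0.05 and 0.09 in met-2 set-25 embryos, 0.09 and 0.12 in cec-4, and 0.46 and 0.36 in wild-type, and fell by 0.34 in met-2 set-25 embryos and by 0.31 in cec-4 (limma adjusted p = 2.1e-09 and 1.5e-08). These values exceeded those of the pairing-centre arms II left and IV left in the same mutants, a difference between chromosomes that was not tested. III right had 0.16 and 0.20 in met-2 set-25 embryos, 0.24 and 0.35 in cec-4, and 0.44 and 0.33 in wild-type. It fell by 0.20 in met-2 set-25 (adjusted p = 3.5e-05), while its change of -0.09 in cec-4 did not pass (limma adjusted p = 0.053). With each region's own variance the met-2 set-25 call was lost (adjusted p = 0.062). The cec-4 change passed under 8 other settings, among them arm limits moved by 1 Mb (-0.18, adjusted p = 5.9e-05) and medians over windows (-0.19, adjusted p = 2.5e-04). Without cec-4 replicate 2 it was -0.15. A contrast between the mutants on III right is thus not given by these calls. Compared directly, met-2 set-25 minus cec-4 was -0.11 there (limma adjusted p = 0.063). It passed when centred on the median autosomal window (-0.14, adjusted p = 0.034). Without cec-4 replicate 1 it was -0.17 on III right and -0.14 on II right. No other opposite arm passed: -0.08 on II right and on IV right (adjusted p = 0.23 each), -0.03 on I left (0.78) and -0.02 on V left (0.94).

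II right and IV right fell in met-2 set-25 by 0.14 and by 0.13 (adjusted p = 0.0023 and 0.0059), and changed by -0.06 and -0.05 in cec-4 without passing (limma adjusted p = 0.18 and 0.26). The met-2 set-25 call on II right was lost without met-2 set-25 replicate 1 (adjusted p = 0.058), without wild-type replicate 1 (-0.09, adjusted p = 0.17) and with own variances (adjusted p = 0.12). That on IV right was lost without met-2 set-25 replicate 1 (adjusted p = 0.075), without wild-type replicate 2 (adjusted p = 0.069) and with own variances (adjusted p = 0.061). In cec-4, II right passed with medians over windows (-0.12, adjusted p = 0.021), with the mean of all inputs (-0.09, adjusted p = 0.048) and without cec-4 replicate 2 (-0.12, adjusted p = 0.024). IV right was the most enriched opposite arm in every genotype, with 0.46 and 0.49 in met-2 set-25 embryos, 0.51 and 0.59 in cec-4, and 0.58 and 0.62 in wild-type. V left, the longest arm with 30 windows, had 0.20 and 0.25 in met-2 set-25 embryos, 0.21 and 0.27 in cec-4, and 0.25 and 0.23 in wild-type. Its changes were -0.01 in met-2 set-25 embryos and 0.01 in cec-4 (adjusted p = 0.78 and 0.89). These calls also depend on the scaling: with TMM factors V left fell by 0.11 in met-2 set-25 (adjusted p = 0.023) and by 0.12 in cec-4 (adjusted p = 0.012), and II right, III right and IV right fell in cec-4 as well. With library totals, V carried both extremes in cec-4, the arm that fell most and the arm that changed least.

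Window by window, LEM-2 enrichment fell in about 8 in 10 windows of the pairing-centre arms in either mutant, and on the opposite arms in about 5 in 10 windows in met-2 set-25 and about 4 in 10 in cec-4. In wild-type, 91 of 106 pairing-centre and 92 of 109 opposite windows were higher in LEM-2 than in input, against 40.5% of all windows, and 7 and 10 were lower, against 52.4% of all (edgeR's quasi-likelihood test on the counts, adjusted p under 0.05 over 504 windows). Relative to wild-type, enrichment in met-2 set-25 was lower in 86 pairing-centre and 56 opposite windows, or 81.1% and 51.4% of them, against 29.8% of all windows. It was higher in 5 and 8, against 49.4% of all. In cec-4 it was lower in 86 pairing-centre and 41 opposite windows, or 81.1% and 37.6%, against 27.6% of all windows, and higher in 10 and 14, against 50.6% of all. The number of pairing-centre windows that fell was thus equal in the mutants, but the median change was -0.34 in met-2 set-25 embryos and -0.45 in cec-4. The median change of the opposite windows was -0.15 in met-2 set-25 embryos and -0.08 in cec-4.

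With library totals as the scaling, these changes are set against a median change over all 504 windows of 0.15 in met-2 set-25 embryos and 0.16 in cec-4. Relative to that median, the pairing-centre windows had a median change of -0.49 in met-2 set-25 embryos and -0.61 in cec-4, and the opposite windows one of -0.30 in met-2 set-25 embryos and -0.24 in cec-4. TMM factors moved the median of all windows to 0.05 in met-2 set-25 embryos and 0.03 in cec-4. The lower and higher calls on the opposite arms were then 74 and 2 in met-2 set-25 embryos and 68 and 5 in cec-4, while those on the pairing-centre arms were 92 and 3 in met-2 set-25 embryos and 92 and 5 in cec-4. Without the LEM-2 library of cec-4 replicate 1, opposite windows higher in cec-4 were 23 in place of 14. Without the LEM-2 library of wild-type replicate 1, pairing-centre windows higher in met-2 set-25 were 8 in place of 5.

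By arm, cec-4 had lower enrichment than wild-type in 21 of 21 windows of I right, 19 of 20 of V right, 17 of 20 of III left, 15 of 20 of IV left and 14 of 25 of II left. On the opposite side it was lower in 16 of 20 windows of I left, 9 of 19 of III right, 5 of 17 of II right, 4 of 23 of IV right and 7 of 30 of V left. The same counts in met-2 set-25 were 20, 19, 17, 15 and 15 on I right, V right, III left, IV left and II left. On the opposite side met-2 set-25 had 17 lower windows on I left, 12 on III right, 9 on II right, 11 on IV right and 7 on V left. Of all windows, 27.6% were lower in cec-4 and 29.8% in met-2 set-25. In cec-4, II right (29.4%) was near that share, and IV right (17.4%) and V left (23.3%) were below it. V left was also below it in met-2 set-25 (23.3%).

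LEM-2 was also compared with input within each mutant. It was above input in 57 and below it in 18 of 106 pairing-centre windows of met-2 set-25, against 37.5% and 39.7% of all windows. In cec-4 it was above input in 37 and below it in 45, against 38.9% and 42.7% of all windows. Of the 109 opposite windows it was above input in 80 and below it in 7 in met-2 set-25, and above it in 92 and below it in 5 in cec-4. Below input here means relative to the library totals.

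**Figure D3:**
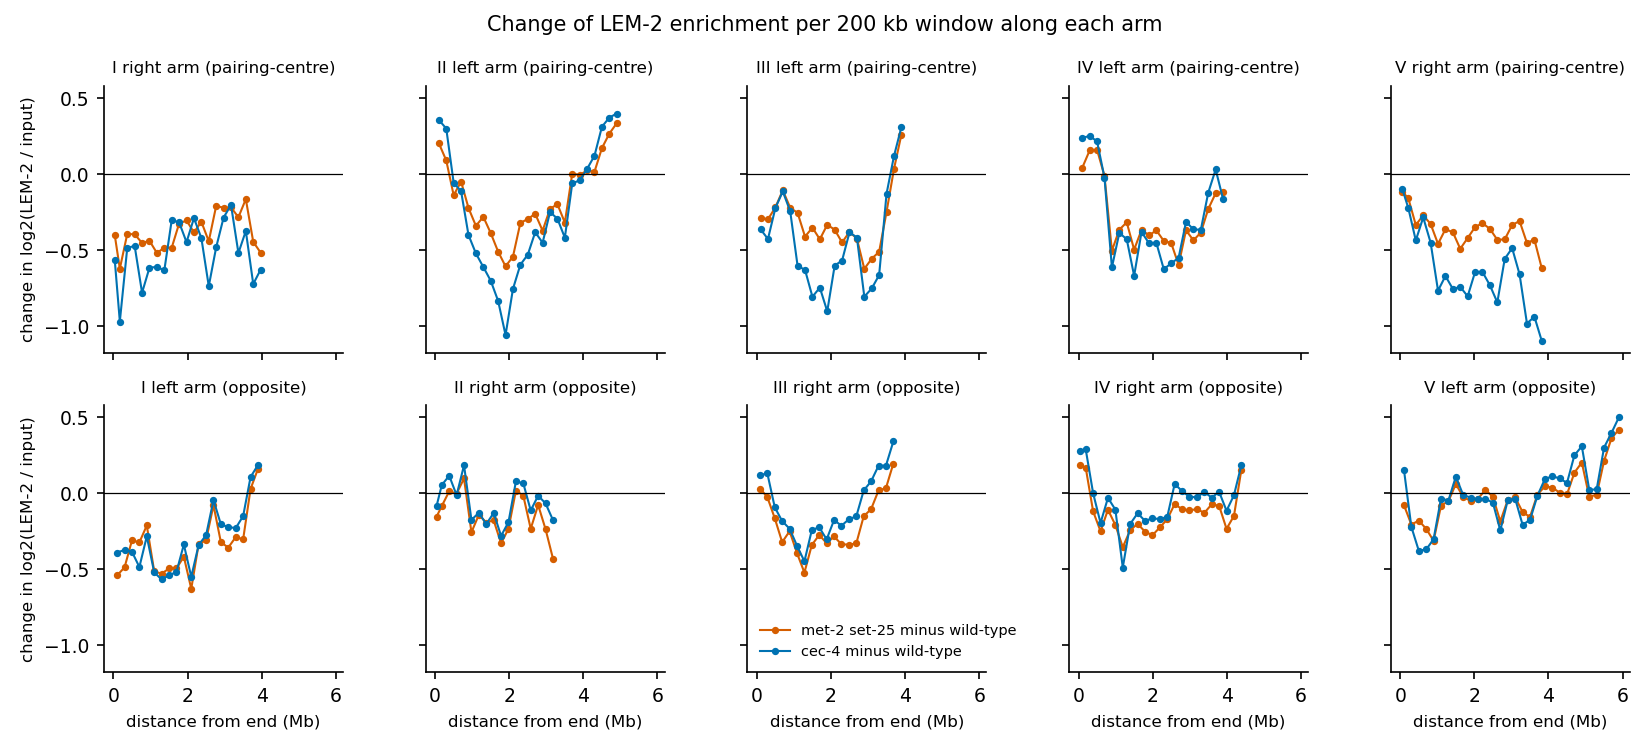
Change of log2 LEM-2 over input from wild-type in each 200 kb window, against the distance of the window from the chromosome end, for the 5 pairing-centre arms (top) and the 5 opposite arms (bottom), in met-2 set-25 embryos and cec-4 (edgeR estimates). The cec-4 line runs below the met-2 set-25 line over most of V right and in the middle of II left and III left, reaching -1.10. On the opposite arms met-2 set-25 minus cec-4 lies between -0.25 and 0.20. On III right the cec-4 line runs above the met-2 set-25 line in every window (difference from -0.18 to -0.016, median -0.12).

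The largest falls of single windows in cec-4 lay on the pairing-centre arms. The window at 1.8 to 2 Mb of II (bases 1800001 to 2000000) had 0.29 and 0.33 in met-2 set-25 embryos, -0.05 and -0.24 in cec-4, and 0.87 and 0.96 in wild-type, where it was among the 3 most enriched windows of the class. It fell by 0.61 in met-2 set-25 (SE 0.08, edgeR adjusted p = 1.7e-05), and it fell by 1.06 in cec-4 (SE 0.08, adjusted p = 1.4e-07). Every mutant library pair lay below every wild-type pair, and both cec-4 pairs lay below 0. The last arm window of V right, at 17 to 17.2 Mb (bases 17000001 to 17200000), had 0.05 and 0.16 in met-2 set-25 embryos, -0.24 and -0.53 in cec-4, and 0.71 and 0.74 in wild-type. Its fall of 1.10 in cec-4 (SE 0.11, adjusted p = 1.1e-06) was the largest on any autosomal arm, and the fall in met-2 set-25 was 0.62 (SE 0.11, adjusted p = 1.9e-04). The next windows outward, at 17.2 to 17.4 and 17.4 to 17.6 Mb, fell by 0.94 and by 0.98 in cec-4, and by 0.43 and by 0.45 in met-2 set-25.

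Near the right end of I, the window at 14.8 to 15 Mb had -0.18 and -0.21 in met-2 set-25 embryos, -0.40 and -0.70 in cec-4, and 0.44 and 0.42 in wild-type. It fell by 0.62 in met-2 set-25 (adjusted p = 7.3e-05) and by 0.97 in cec-4 (edgeR adjusted p = 1.1e-06). On III the window at 2.8 to 3 Mb had 0.00 and 0.00 in met-2 set-25 embryos, -0.12 and -0.25 in cec-4, and 0.62 and 0.62 in wild-type, the largest fall of the class in met-2 set-25 at 0.62. The 2 most enriched windows of III left in wild-type, at 1.2 to 1.4 Mb (0.95 and 1.00) and 2.2 to 2.4 Mb (0.87 and 0.87), fell in both mutants and remained above input there. On IV the window at 2.6 to 2.8 Mb had -0.23 and -0.22 in met-2 set-25 embryos, -0.11 and -0.24 in cec-4, and 0.42 and 0.33 in wild-type, with a difference between the mutants of -0.05 that did not pass (edgeR adjusted p = 0.74). The genes of these windows are not given, since no annotation of the build of the table was used.

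Rises on the pairing-centre arms were few, and the largest lay at the inner edge of II left and III left and at the left end of II. The windows of II at 4.6 to 4.8 and 4.8 to 5 Mb, the last of that arm, rose by 0.27 and by 0.33 in met-2 set-25 embryos and by 0.37 and by 0.40 in cec-4. The window at 4.8 to 5 Mb had -0.32 and -0.36 in met-2 set-25 embryos, -0.24 and -0.32 in cec-4, and -0.67 and -0.68 in wild-type, and remained below input. The last window of III left, at 3.8 to 4 Mb, rose by 0.26 in met-2 set-25 embryos and by 0.31 in cec-4. At the left end of II, the window at 0 to 0.2 Mb had 0.42 and 0.39 in met-2 set-25 embryos, 0.59 and 0.53 in cec-4, and 0.34 and 0.06 in wild-type, and rose by 0.20 in met-2 set-25 (edgeR adjusted p = 0.028) and by 0.36 in cec-4 (adjusted p = 7.7e-04).

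Among opposite windows, 4 of the 5 largest falls in met-2 set-25 and all 5 in cec-4 lay on I left. The other in met-2 set-25 was the window at 12.4 to 12.6 Mb of III, with -0.06 and 0.06 in met-2 set-25 embryos, 0.04 and 0.10 in cec-4, and 0.58 and 0.47 in wild-type, which fell by 0.52 in met-2 set-25 embryos and by 0.45 in cec-4. The window at 1.2 to 1.4 Mb of I had 0.43 and 0.44 in met-2 set-25 embryos, 0.34 and 0.44 in cec-4, and 0.98 and 0.94 in wild-type, and fell by 0.53 in met-2 set-25 (adjusted p = 7.4e-06) and by 0.57 in cec-4 (edgeR adjusted p = 1.3e-06). The window at 2 to 2.2 Mb had -0.12 and -0.03 in met-2 set-25 embryos, 0.00 and 0.01 in cec-4, and 0.60 and 0.51 in wild-type, and fell by 0.63 in met-2 set-25 embryos and by 0.55 in cec-4. The 5 in cec-4 all lay between 1 and 2.2 Mb of I, and none of those windows differed between the mutants past the test. The largest rise lay at 5.8 to 6 Mb of V, the last window of V left, with 0.08 and 0.11 in met-2 set-25 embryos, 0.14 and 0.21 in cec-4, and -0.32 and -0.33 in wild-type. It rose by 0.42 in met-2 set-25 embryos and by 0.50 in cec-4.

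The arm limits placed some of these windows just inside an arm. Across the 5 limits of the pairing-centre arms, the last arm windows averaged -0.17 in met-2 set-25, -0.27 in cec-4 and -0.03 in wild-type, and the first windows of the centres averaged -0.04 in met-2 set-25, -0.12 in cec-4 and 0.07 in wild-type. Across the limits of the opposite arms, the last arm windows averaged -0.01 in met-2 set-25, 0.10 in cec-4 and -0.10 in wild-type, and the first centre windows -0.10 in met-2 set-25, -0.04 in cec-4 and -0.26 in wild-type. At the limit of V right the first centre window, 16.8 to 17 Mb, had 0.18 and 0.27 in met-2 set-25 embryos, -0.13 and -0.27 in cec-4, and 0.61 and 0.67 in wild-type, so LEM-2 enrichment and its loss went on beyond the limit there. The first centre window beside I right, 10.8 to 11 Mb, likewise had 0.40 and 0.35 in wild-type.

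Wild-type LEM-2 did not decline evenly from the chromosome ends, and the mean shape differed between the classes. On the pairing-centre arms of wild-type the mean log2 ratio was 0.52 and 0.39 in the first Mb from the end, 0.57 and 0.54 in the second, 0.54 and 0.51 in the third and 0.24 and 0.21 in the fourth. The opposite arms of wild-type had 0.62 and 0.52, then 0.56 and 0.53, then 0.42 and 0.37, and 0.30 and 0.27 in the fourth Mb. As means over arms, the pairing-centre arms thus had a plateau over the first 3 Mb and the opposite arms a decline. Single arms varied within both classes. A straight line through the whole arm sloped in wild-type by -0.19 log2 per Mb on III left and -0.15 on II left, against 0.013 on I right. Among the opposite arms it sloped by -0.19 on I left and -0.047 on II right. The first Mb of I right includes the ribosomal DNA window, at -0.32 in wild-type.

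In cec-4 the pairing-centre arms had 0.23 and 0.20 in the first Mb, -0.03 and -0.13 in the second, 0.01 and -0.05 in the third and -0.13 and -0.20 in the fourth. In met-2 set-25 they had 0.25 and 0.26, then 0.13 and 0.17, then 0.12 and 0.16, and -0.07 and -0.03. Enrichment above input in cec-4 was thus limited, as a mean over the 5 arms, to the outermost Mb. The difference from wild-type in cec-4 was -0.24 in the first Mb, -0.63 in the second, -0.55 in the third and -0.39 in the fourth. In met-2 set-25 it was -0.19, -0.40, -0.39 and -0.27 over the same bins, with the same order of sizes. On the opposite arms it was -0.12, -0.25, -0.12 and -0.03 in cec-4 and -0.17, -0.27, -0.18 and -0.14 in met-2 set-25. In both classes and both mutants the second Mb had the largest loss.

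The arm classes were also compared within bins. In the first Mb, pairing-centre minus opposite arms was -0.14 in met-2 set-25, -0.23 in cec-4 and -0.11 in wild-type. The pairing-centre arms thus had less LEM-2 there in all genotypes as a mean over arms, with the ribosomal DNA window of I right included. Single arms overlapped between the classes. In wild-type the outermost windows ran from -0.32 to 0.86 on the pairing-centre arms and from 0.12 to 0.80 on the opposite arms. In the second Mb it was -0.12 in met-2 set-25, -0.37 in cec-4 and 0.01 in wild-type, and in the third it was -0.07 in met-2 set-25, -0.30 in cec-4 and 0.13 in wild-type. Each bin gave an exact permutation p of 0.333 for each mutant against wild-type, the smallest possible.

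**Figure D4:**
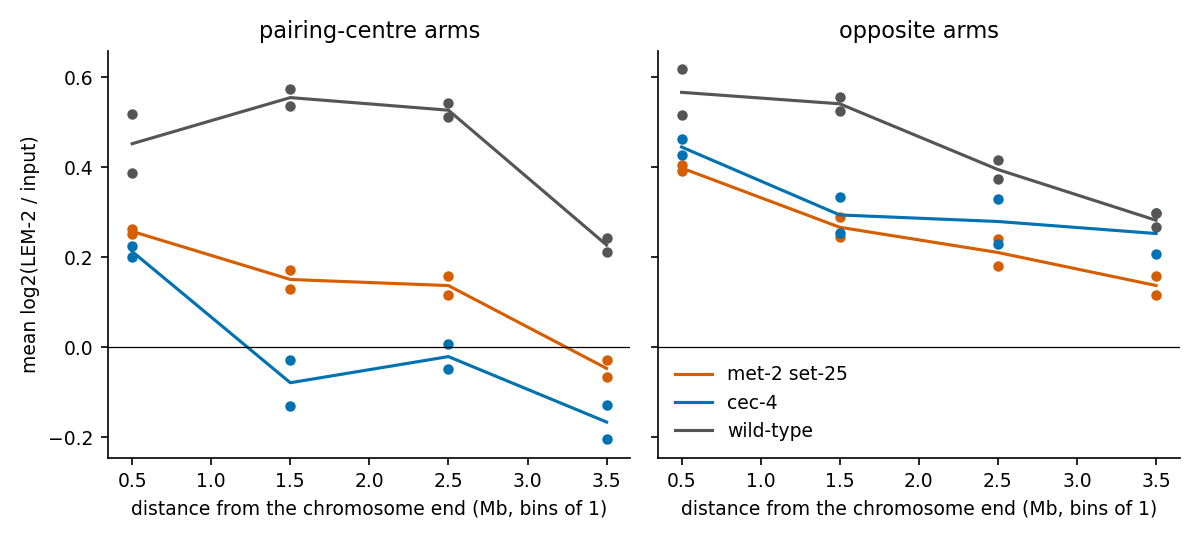
Mean log2 ratio of LEM-2 to input in bins of 1 Mb from the chromosome end, over the 5 pairing-centre arms (left) and the 5 opposite arms (right), for the bins that all 5 arms reach. Points are library pairs and lines their means; the cec-4 line lies below 0 from the second Mb on the pairing-centre arms (-0.08, -0.02 and -0.17) and stays at or above 0.21 in every pair on the opposite arms.

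A straight line through each arm gave a slope of LEM-2 enrichment on distance from the end. Averaged over the pairing-centre arms it was -0.092 and -0.087 log2 per Mb in met-2 set-25 embryos, -0.093 and -0.098 in cec-4, and -0.10 and -0.071 in wild-type, so the genotypes overlapped. On the opposite arms it was -0.097 and -0.089 in met-2 set-25 embryos, -0.083 and -0.062 in cec-4, and -0.13 and -0.12 in wild-type, where wild-type was steepest in every pair (exact permutation p = 0.333 for each mutant against wild-type). The flatter gradient of the opposite arms in the mutants did not hold within 3 Mb of the end, where the change from wild-type was -0.011 in met-2 set-25 embryos and -0.00301 in cec-4, in place of 0.032 in met-2 set-25 embryos and 0.052 in cec-4. The wild-type slope of the pairing-centre arms was 0.029 within 3 Mb.

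Arms of a class had unlike slopes. On I right the slope was positive in all genotypes, at 0.060 in met-2 set-25, 0.061 in cec-4 and 0.013 log2 per Mb in wild-type. That line includes the outermost window of the arm, where the ribosomal DNA repeats lie. The window had -0.72 in met-2 set-25, -0.89 in cec-4 and -0.32 in wild-type, below the mean of the arm in each genotype. It tilts the line towards a positive slope, by an amount not given here. V right sloped by -0.094 and -0.064 in met-2 set-25 embryos and by -0.16 and -0.21 in cec-4, and was nearly flat in wild-type (-0.037 and -0.0001). V left, its opposite arm, was flatter in both mutants than in wild-type, with -0.067 and -0.057 in met-2 set-25 embryos, -0.050 and -0.041 in cec-4 and -0.13 and -0.12 in wild-type. I left and III right were likewise flatter in both mutants. I left had -0.090 in met-2 set-25, -0.061 in cec-4 and -0.19 in wild-type, and III right -0.079, -0.053 and -0.13. On IV right the slopes were -0.13 in met-2 set-25, -0.12 in cec-4 and -0.13 in wild-type. II right went the other way and was steeper in the mutants, with -0.11 and -0.10 in met-2 set-25 embryos, -0.089 and -0.074 in cec-4 and -0.061 and -0.032 in wild-type.

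The outermost windows varied by arm. The last window of V, from 20.8 Mb to the end, had 0.71 and 0.65 in met-2 set-25 embryos, 0.73 and 0.65 in cec-4, and 0.87 and 0.72 in wild-type, and its changes did not pass (edgeR adjusted p = 0.15 in met-2 set-25 embryos and 0.20 in cec-4), although the rest of that arm fell. The last window of IV, on the opposite arm, had 0.99 and 0.97 in met-2 set-25 embryos, 1.08 and 1.07 in cec-4, and 0.87 and 0.73 in wild-type, and rose by 0.19 in met-2 set-25 (adjusted p = 0.040) and by 0.28 in cec-4 (adjusted p = 0.0040). It was the most enriched arm window of both mutants. The last window of I, where the ribosomal DNA repeats lie, had -0.76 and -0.68 in met-2 set-25 embryos, -0.82 and -0.96 in cec-4, and -0.19 and -0.45 in wild-type. Its share of a library's counts was 0.492% to 1.18%, and reads of a repeat cannot be placed within it. Its fall passed in cec-4 (0.57, adjusted p = 0.021) and not in met-2 set-25 (change -0.40, adjusted p = 0.088).

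Within the arms the mutants were compared with each other directly. On the pairing-centre arms met-2 set-25 was higher than cec-4 in 34 of 106 windows and lower in 0, against 7.54% and 0.595% of all windows (edgeR adjusted p under 0.05). Of the 109 opposite windows it was higher in 1 and lower in 3. Windows that differed in either direction were 8.13% of all. Of the 34, V right held 12, I right, II left and III left 7 each, and IV left 1. This count rests on single libraries: it was 0 without the LEM-2 library of met-2 set-25 replicate 2, 18 without the input of met-2 set-25 replicate 1, 21 without the input of cec-4 replicate 1, and 58 without the LEM-2 library of cec-4 replicate 1. The opposite arms had between 0 and 40 windows that differed when a library was left out, the 40 without the LEM-2 library of cec-4 replicate 1.

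Irrespective of the test, met-2 set-25 had the higher mean in 80 of 106 pairing-centre windows (median difference 0.11, range -0.21 to 0.57) and the lower mean in 86 of 109 opposite windows (median difference -0.07, range -0.25 to 0.20). The largest difference lay at 1.8 to 2 Mb of III, with 0.03 and 0.12 in met-2 set-25 embryos, -0.34 and -0.65 in cec-4, and 0.43 and 0.39 in wild-type. Met-2 set-25 exceeded cec-4 there by 0.57 (SE 0.09, edgeR adjusted p = 0.0061). The windows of V at 17.4 to 17.6 and 17.2 to 17.4 Mb followed, with differences of 0.53 and 0.51 (adjusted p = 0.0070 and 0.0063). The largest difference of an opposite window was at 12 to 12.2 Mb of II, with 0.03 and 0.05 in met-2 set-25 embryos, 0.25 and 0.33 in cec-4, and 0.50 and 0.44 in wild-type, a difference of -0.25 (adjusted p = 0.017).

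To avoid shared libraries in setting the changes of the mutants side by side along the arms, the change of each mutant was taken from a different wild-type library pair. Across the 106 pairing-centre windows Pearson's r was 0.84 and 0.90 for the 2 assignments (Spearman's rho 0.76 and 0.82), and across the 109 opposite windows 0.80 and 0.89 (rho 0.78 and 0.86). After the mean of each arm was subtracted r was 0.85 and 0.90 on the pairing-centre arms and 0.83 and 0.90 on the opposite arms. These are descriptions: neighbouring windows are not independent, all windows share libraries, and the wild-type pairs, although separate, share the wild-type profile that is subtracted from both mutants. That sharing alone gives an r above 0, by an amount not computed here, so these r values do not show how alike the changes were.

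Levels need no subtraction. On the opposite arms the mutants' mean log2 ratios followed each other with r = 0.95, against 0.76 between met-2 set-25 embryos and wild-type and 0.71 between cec-4 and wild-type. On the pairing-centre arms r was 0.80 between the mutants, 0.74 between met-2 set-25 embryos and wild-type and 0.36 between cec-4 and wild-type, while replicates of a genotype had r of at least 0.96 on either class. The pairing-centre arms of cec-4 were thus the least like wild-type in profile as well as in level.

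**Figure D5:**
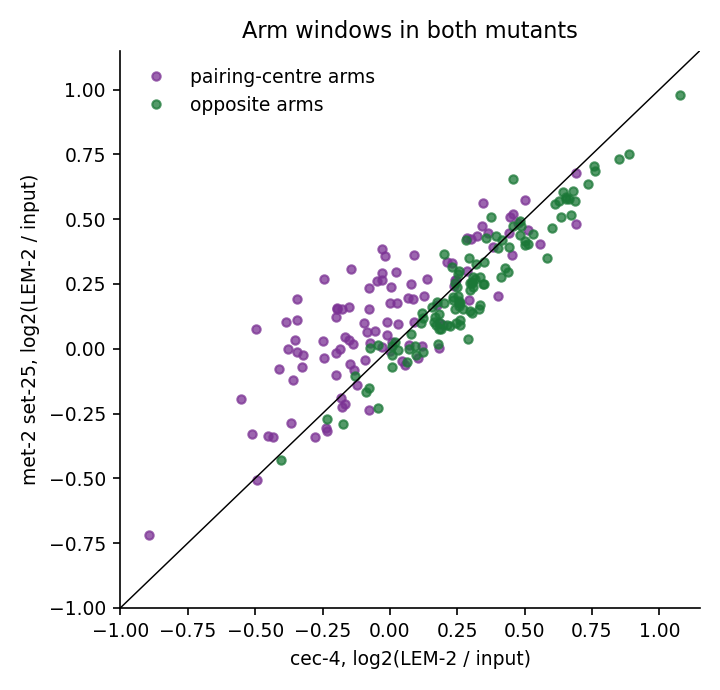
Mean log2 ratio of LEM-2 to input in met-2 set-25 (vertical) against cec-4 (horizontal) for each of the 215 arm windows, with a line at equal values. Most pairing-centre windows lie above the line (80 of 106) and most opposite windows below it (86 of 109).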

How the data were processed

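Genome-wide LEM-2 and input libraries of early embryos were sequenced in pairs of reads after 15 PCR cycles without molecular identifiers, per the labels' protocols. The authors deposited raw counts per 200 kb window, and log2 values of the same windows that are a rescaling of them (largest difference 5.2e-14) and served as an alternative. Bowtie was used, per the submitters' processing notes, with no version given. The sources used here do not give the genome build or read filters, and counting both reads of a pair or PCR copies would make counting error larger than assumed.

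Windows were tested on the deposited counts with edgeR 4.0.16 (glmQLFit and glmQLFTest in R 4.3.3), in one fit of 12 libraries with a mean per group, library totals as scaling and Benjamini-Hochberg adjustment over 504 windows. A filter of a mean of 100 counts removed 0 windows (smallest mean 4515), so the setting without it gives identical values. The test was checked on simulated counts. Arm means and arm differences were tested with limma 3.58.1 over 18 regions and 6 chromosomes, and class means by exact two-sided permutation of library pairs. Other settings were TMM and DESeq2 1.42.0 factors and test, a pseudocount of 10, other inputs, weights and limits, and each library left out. Fits with crossed wild-type numbers, without each chromosome, and of LEM-2 or input alone were added after seeing the data.

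Strains were grown in parallel per the labels, and that libraries of equal replicate number form a pair is an assumption. Differences of replicate 2 from 1 correlated over 0.1 in 7 of 15 pairs of groups and under -0.1 in 4 (-0.55 to 0.46), so the data do not settle it. Named windows were the 3 highest and 3 lowest of each class in wild-type, the 5 largest falls and 3 largest rises per mutant, and the 3 largest differences between mutants, all called and with replicates that do not overlap, plus the windows at arm limits and ends. Members, lists and tests were chosen with earlier results of these data known.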

Additional observations from a re-analysis of the deposited data

Results flagged for a closer look

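On 4 autosomes the change of the arm difference, pairing-centre minus opposite, was less negative in met-2 set-25 embryos than in cec-4 by the limma test of the difference itself. Met-2 set-25 minus cec-4 was 0.168 on I (adjusted p = 0.019), 0.168 on II (adjusted p = 0.026), 0.251 on III (adjusted p = 0.0040) and 0.294 on V (adjusted p = 0.0040). Both met-2 set-25 library pairs lay above both cec-4 pairs on each of these chromosomes. None of the 4 passed with each chromosome's own variance (adjusted p of 0.075 to 0.11).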

How the results depend on the processing

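The means of both arm classes in met-2 set-25 embryos and wild-type, those of the opposite arms in cec-4, the changes of both classes from wild-type and the class differences of both mutants held their direction in every setting tried, as did the counts of pairing-centre windows that fell. With 2 library pairs per genotype, exact tests cannot pass, so their p-values say nothing of stability.

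The pairing-centre mean of cec-4 (-0.013) turned positive with arm limits moved by 1 Mb (0.031), within 3 Mb of the end (0.034), without chromosome I (0.032), and between -0.044 and 0.017 with a replicate left out. The wild-type class difference (0.0079) was -0.0040 with medians over windows, -0.022 without III and -0.084 without V. The pairing-centre gradient of wild-type was 0.0081 with limits moved and 0.029 within 3 Mb. Its change was, with windows weighing equally, without IV, without V and without the outermost windows, 0.019, 0.015, 0.012 and 0.010 in met-2 set-25 embryos and 0.024, 0.0066, 0.030 and 0.015 in cec-4. With a replicate left out it lay between -0.018 and 0.013 in met-2 set-25 embryos and between -0.024 and 0.0065 in cec-4. The change of the opposite gradient was -0.019 in met-2 set-25 embryos and -0.012 in cec-4 with limits moved, and -0.011 and -0.00301 within 3 Mb. The cause of these reversals was not tested.

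Opposite windows lower in cec-4 numbered 41, against 74 with DESeq2's Wald test, 67 with DESeq2 factors and 68 with TMM, and those lower in met-2 set-25 56 against 87 with DESeq2's Wald test. With each of those 3 settings and with limits moved, opposite windows higher were 2 in met-2 set-25 embryos and 5 in cec-4. Limits were moved towards the chromosome ends, which takes the inner windows out of both classes. Counts with limits moved are therefore over fewer windows, and a lower count there need not be a changed call. Pairing-centre windows higher were 3 in met-2 set-25 under those 3 settings and 1 with limits moved, and 5 in cec-4 under all of them. Wild-type windows below input were 3 (DESeq2), 5 (TMM) and 3 (limits moved) on opposite arms and 4 (DESeq2) and 0 (limits moved) on pairing-centre arms. Opposite windows that differed between the mutants were 1 with DESeq2 factors and with limits moved. With a library left out, windows differing between the mutants ranged over 0 to 58 on pairing-centre and 0 to 40 on opposite arms, opposite windows higher in cec-4 over 10 to 23, and pairing-centre windows higher in met-2 set-25 over 4 to 8.

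Autosomes with a called arm difference were 2 in met-2 set-25 with limits moved and 0 with own variances, and 0 between the mutants with own variances. With a replicate left out they were 1 to 3 in met-2 set-25, 4 to 5 in cec-4 and 1 to 5 between the mutants. Single arms near 0 changed sign: V left in cec-4 was -0.043 (limits moved), -0.0096 (medians) and -0.12 (TMM) and ranged over -0.023 to 0.035, and in met-2 set-25 over -0.040 to 0.015. Between the mutants V left was 0.011 with TMM and ranged over -0.047 to 0.011, I left was 0.0031 with the mean of all inputs, and IV left was -0.018 when centred on the median autosomal window and ranged over -0.0096 to 0.024. The arm difference on II in met-2 set-25 ranged over -0.037 to 0.0051.

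With the replicate number as a block, pairing-centre windows lower were 86 in met-2 set-25 embryos and 86 in cec-4, and opposite windows lower were 56 in met-2 set-25 embryos and 45 in cec-4. Apart from the differences between the mutants on I right and III left, the block changed no call on an arm or an arm difference. With the wild-type numbers crossed, the counts were 86 and 58 in met-2 set-25 embryos and 86 and 50 in cec-4. The crossed block did change calls on III right. Its change in cec-4 (-0.09, limma adjusted p = 0.012) and the difference between the mutants there (-0.11, adjusted p = 0.023) then passed.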
